A study of Mus musculus with 81 samples.

Results

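The transcriptional response to cuprizone was described in microglia, the resident macrophages of the brain, of mice that lack Trem2. It rests on 7 of the 81 libraries of the series, chosen by their labels. The first group held 3 libraries of Trem2KO mice on regular diet (baseline), with cells gated as CD44, CD45 and CD11b low. The second held 4 libraries of Trem2KO mice fed 0.2% cuprizone for 4 weeks, with cells gated as negative for CD229, the protein of Ly9, and for CD11c, the protein of Itgax. All 7 came from adult male mice on the C57BL/6 strain and were strand-specific libraries of polyadenylated RNA. The labels do not describe the Trem2 allele. Per the labels' protocol, cells were sorted from pooled brains of 2 to 6 mice of the same condition. WT mice of the same strain, age class and sex were used for comparison, with 3 baseline libraries and 3 libraries of the same diet, time and CD229neg CD11cneg gate.

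Baseline cells were not gated on CD229 or CD11c, so the diet and the gate changed together and cannot be told apart. The labels do not say that libraries came from separate cohorts, so p-values measure the spread between these libraries.

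Cuprizone binds copper, and feeding it leads to the death of oligodendrocytes and the loss of myelin. Microglia clear the debris, and TREM2 is a surface receptor for lipids and apolipoproteins that signals through the adaptor DAP12 (Tyrobp). In mice without it, microglia are known to enter the disease-associated state, a program of lipid metabolism, lysosomal and phagocytic genes, only in part. Interferon signaling and proliferation are further programs that microglia take up in demyelinated tissue.

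Total counts ran from 9574388 to 11101078 in the 3 baseline libraries and from 8153475 to 9583219 in the 4 cuprizone libraries. Levels below are CPM, counts scaled to library size with TMM factors, and differences are log2 fold changes ± SE of cuprizone over baseline. They come from edgeR's quasi-likelihood test, and a gene passed where its p, adjusted by Benjamini-Hochberg over all tested genes, was under 0.05. Trem2 itself (chromosome 17, 48346401 to 48352276, mm10) was at 109.5, 88.5 and 122 CPM in the Trem2KO baseline libraries and at 119.6, 122, 127 and 125 CPM in the Trem2KO cuprizone libraries. In WT it was at 404, 346 and 408 CPM at baseline and 547, 483 and 515 CPM after cuprizone. Reads of the gene remained in Trem2KO cells, and every Trem2KO library was below every WT library. Within Trem2KO, Trem2 did not pass the test (0.21 ± 0.09, adjusted p = 0.195), and it did without baseline replicate 3 (adjusted p = 0.0263).

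The cells carried the profile of microglia. Tmem119 was at 1288, 1231 and 1477 CPM at baseline and 1119, 1158, 1237 and 1241 CPM after cuprizone, and P2ry12 at 1825, 1741 and 1725 and 1530, 1667, 1711 and 1719 CPM. Cuprizone cells followed their gate for CD229: Ly9 was at 44.4, 40.2, 41.4 and 33.5 CPM, close to the baseline level of 36.4, 31.2 and 36.5 CPM, while it was at 209, 227, 259 and 253 CPM in the CD229pos CD11cneg cells of the same diet. Itgax behaved otherwise. It was at 6.14, 4.56 and 5.72 CPM at baseline and 14.1, 16.7, 14.6 and 21.9 CPM in the cuprizone cells gated as CD11cneg, with no overlap, and rose by 1.62 ± 0.17 (adjusted p = 1.31e-06). In WT baseline libraries Itgax was at 23.1, 21.2 and 21.9 CPM. Cd44, whose protein was part of the baseline gate, was at 0.318, 1.73 and 1.43 CPM at baseline and 3.52, 3.04, 2.79 and 2.81 CPM after cuprizone (1.36 ± 0.34, adjusted p = 0.0187). The groups did not overlap, and the Cd44 call ended in 3 of 13 alternatives, with adjusted p up to 0.0925 (with only the groups compared, without Trem2KO baseline replicate 1, without Trem2KO cuprizone replicate 1).

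Some libraries stood apart. In baseline replicate 3 the 10 border macrophage markers summed to 93.6 CPM, against 33.3 and 22.3 CPM in the other baseline libraries and 20.5 to 32.0 CPM in the cuprizone libraries. The 18 immediate early genes summed to 9958, 10240 and 6622 CPM at baseline and 7852, 7738, 5688 and 3417 CPM after cuprizone, lowest in cuprizone replicate 4. The 9 neutrophil markers summed to 0.310, 6.52, 0.349 and 7.45 CPM in the cuprizone libraries and to at most 0.365 CPM at baseline. Baseline replicate 2 had the highest heat shock sum (913.5 CPM, against 557.9 to 667.6 CPM in the other 6). The WT baseline libraries used for comparison were uneven too. Their border macrophage markers summed to 21.6, 125.1 and 115 CPM and their neutrophil markers to 0.786, 21.25 and 1.44 CPM. The part of these differences in the results was not tested, and results that rest on 1 library are given with and without it.

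**Figure D1:**
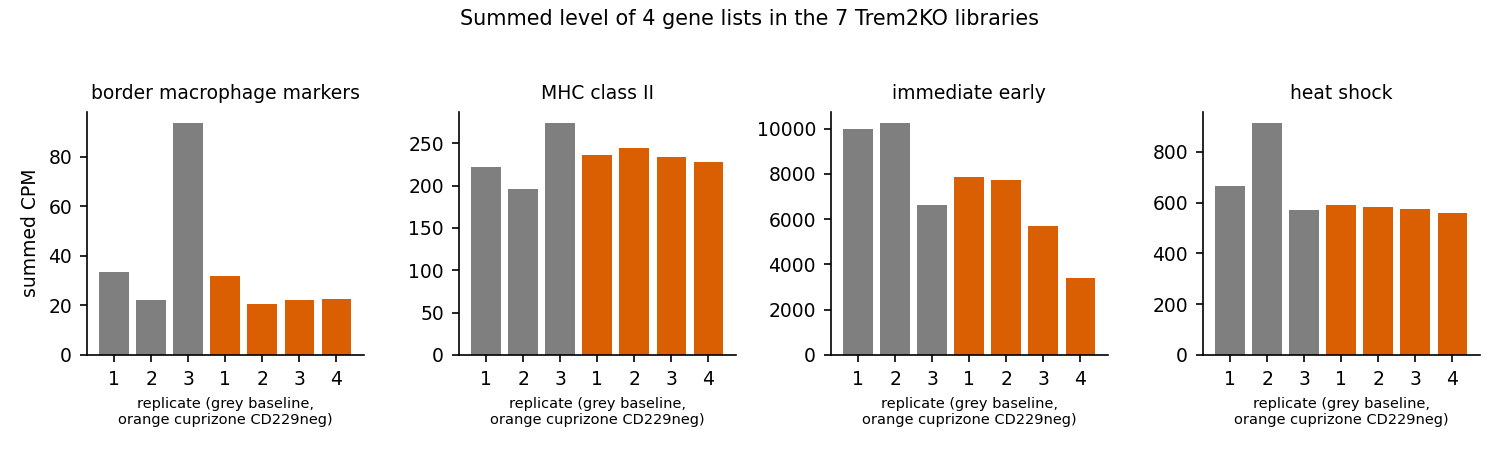
Summed CPM of the border macrophage, MHC class II, immediate early and heat shock lists (vertical axes, from 0) in the 3 Trem2KO baseline libraries (grey) and the 4 Trem2KO cuprizone CD229neg CD11cneg libraries (orange). Baseline replicate 3 is highest for border macrophage markers (93.6 CPM) and cuprizone replicate 4 lowest for immediate early genes (3417 CPM).

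Without Trem2, the cuprizone cells had higher levels of interferon-response, disease-associated and cell cycle genes, while the homeostatic genes of microglia were near their baseline levels. Of 12522 genes tested over the 14 libraries of the count table, 594 rose (4.74%) and 203 fell (1.62%). At least 2-fold higher were 243 genes (1.94%) and at least 2-fold lower 12 (0.0958%), so most of the large changes were increases. The groups did not overlap for 583 of the 594 genes and 188 of the 203. The share without overlap among all tested genes is not given, so these counts are no separate support for the calls. The median log2 fold change of all tested genes was -0.0036. In these bulk libraries, a change in the share of cells that express a gene and a change in RNA per cell cannot be told apart.

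**Figure D2:**
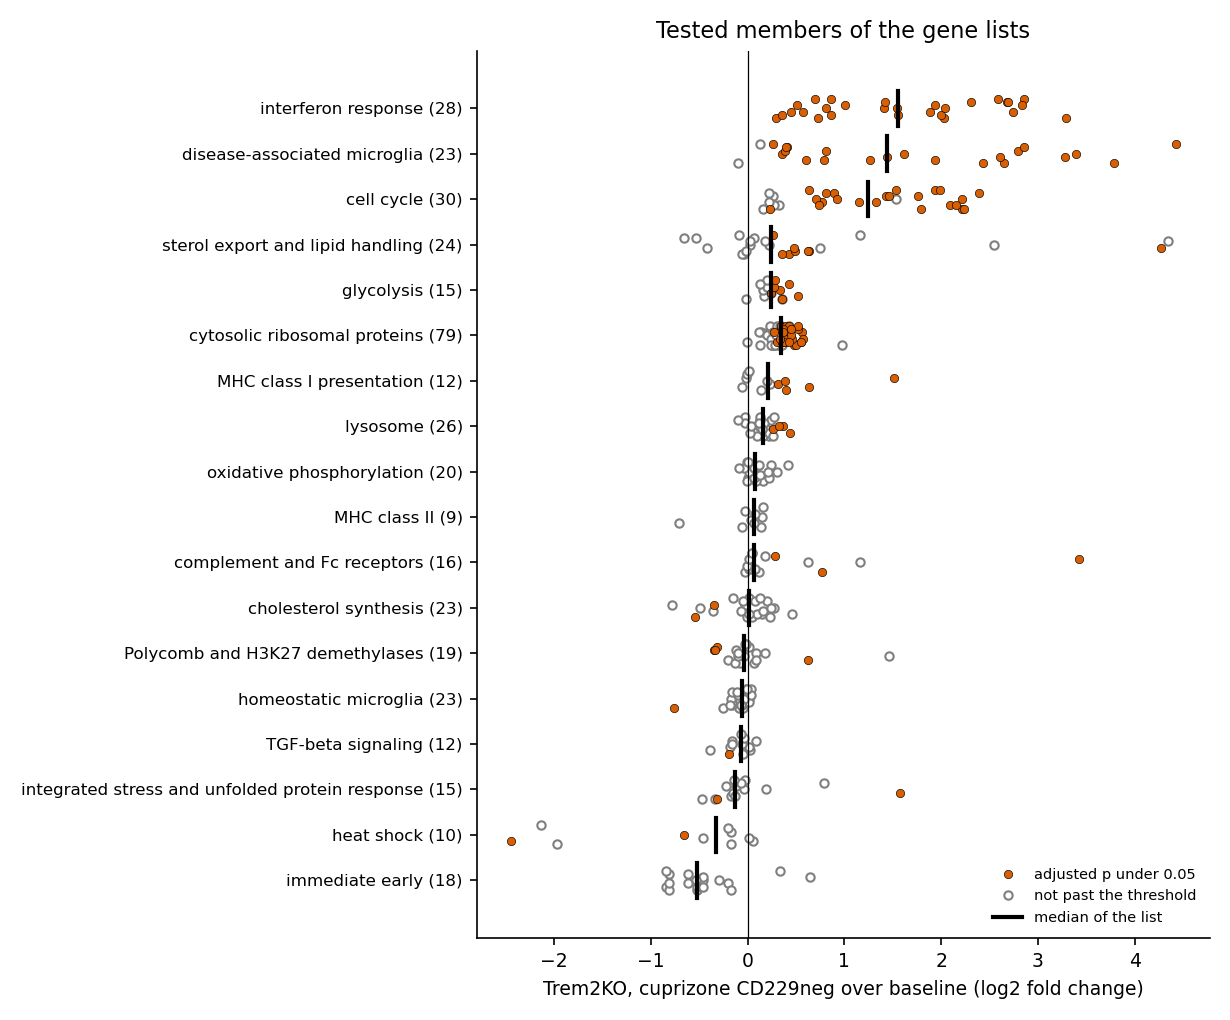
Log2 fold change (horizontal axis) of each tested member of 18 gene lists in Trem2KO cells, cuprizone CD229neg CD11cneg over baseline. Filled points passed adjusted p under 0.05, bars are list medians and the number of tested members follows each list's name. The interferon (1.55), disease-associated (1.44) and cell cycle (1.24) medians lie to the right of all others shown.

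Interferon-response genes gave the broadest response. All 28 members of the list were tested and all 28 rose, with log2 fold changes of 0.29 to 3.30 and a median of 1.55, beside 4.74% of all tested genes. The count was 25 to 28 when any of the 7 libraries was left out. Type I interferons bind a receptor whose signal switches on antiviral genes through the interferon-stimulated response element.

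The largest folds of the list were those of Oas3, Oas2, Ifi44 and Rsad2. Ifi44 was low, at 0.106, 0.273 and 0.204 CPM at baseline and 0.828, 0.978, 2.67 and 1.59 CPM after cuprizone (2.84, adjusted p = 0.0107). The Ifi44 call ended in 1 of 12 alternatives (without Trem2KO baseline replicate 1, adjusted p = 0.0634). Oas3 and Oas2, synthetases of the 2-5A signal that activates RNase L, rose by 3.30 ± 0.44 (adjusted p = 3.65e-05) and 2.85 ± 0.29 (adjusted p = 1.12e-06). Oas2 was at 5.08, 10.4 and 6.94 CPM at baseline and 57.1, 45.7, 60.9 and 55.7 CPM after cuprizone. Rsad2, the radical-SAM enzyme viperin, was at 2.96, 3.92 and 1.63 CPM at baseline and 17.6, 20.8, 20.3 and 18.5 CPM after cuprizone (2.74 ± 0.23, adjusted p = 8.66e-08). Every cuprizone library was above every baseline library for each of these genes. Oasl2, an OAS-like protein, went from 7.83, 5.65 and 6.13 CPM to 44.0, 34.7, 43.8 and 44.4 CPM (2.68 ± 0.18, adjusted p = 4.93e-09). Zbp1, a sensor of Z-form nucleic acid, rose by 2.59 ± 0.19 and Rtp4 by 2.04 ± 0.14.

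Irf7, the factor that amplifies interferon production, was at 10.7, 11.1 and 8.06 CPM at baseline and 33.7, 35.8, 40.3 and 43.6 CPM after cuprizone (1.94 ± 0.15, adjusted p = 2.49e-08). The chemokine gene Cxcl10, which draws T cells, was at 1.91, 2.28 and 0.715 CPM and 7.04, 9.46, 8.83 and 7.70 CPM (2.31 ± 0.29). Isg15, a ubiquitin-like modifier, had a smaller change, from 2.75, 3.10 and 3.78 CPM to 4.66, 4.35, 5.46 and 8.31 CPM (0.81 ± 0.22, adjusted p = 0.0321). The Isg15 call ended in 6 of 13 alternatives, with adjusted p up to 0.146 (with a replicate block, with only the groups compared, without Trem2KO baseline replicate 1 or 2, without Trem2KO cuprizone replicate 3 or 4). The members of the Oas and Ifi families are close paralogs between which reads may be split, which leaves the level of each one uncertain.

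Promoters of 4 interferon genes are shown because these genes rose together and because their sequence can be set beside the element through which interferon acts. They are the 4 list members with the largest Trem2KO fold change among those whose promoter held a match, chosen after values were seen. Each runs 250 bases before to 50 bases after the start site, 5′ to 3′ on the gene's strand (RefSeq, GRCm38.p6). Capitals mark matches to GAAANNGAA, the core of the interferon-stimulated response element, searched on both strands. All 4 genes lie on the minus strand: Oas3 at chr5:120777610-120777909, Ifi44 at chr3:151749861-151750160, Rsad2 at chr12:26456403-26456702 and Cxcl10 at chr5:92348840-92349139.
Oas3: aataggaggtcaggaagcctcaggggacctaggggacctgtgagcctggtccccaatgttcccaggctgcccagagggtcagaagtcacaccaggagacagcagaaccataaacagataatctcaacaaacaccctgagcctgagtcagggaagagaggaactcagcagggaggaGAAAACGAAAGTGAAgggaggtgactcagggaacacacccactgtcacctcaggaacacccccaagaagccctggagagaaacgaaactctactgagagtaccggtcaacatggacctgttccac
Ifi44: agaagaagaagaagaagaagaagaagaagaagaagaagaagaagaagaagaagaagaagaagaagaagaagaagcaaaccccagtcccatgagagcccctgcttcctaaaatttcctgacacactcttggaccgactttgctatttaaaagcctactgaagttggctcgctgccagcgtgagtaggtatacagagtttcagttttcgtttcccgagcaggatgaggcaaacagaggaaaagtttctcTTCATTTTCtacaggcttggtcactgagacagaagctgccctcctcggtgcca
Rsad2: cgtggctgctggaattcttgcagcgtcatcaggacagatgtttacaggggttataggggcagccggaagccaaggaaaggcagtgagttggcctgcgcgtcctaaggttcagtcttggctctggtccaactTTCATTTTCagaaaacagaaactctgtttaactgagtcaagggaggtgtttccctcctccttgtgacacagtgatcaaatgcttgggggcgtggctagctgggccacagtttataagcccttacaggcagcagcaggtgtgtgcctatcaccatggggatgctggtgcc
Cxcl10: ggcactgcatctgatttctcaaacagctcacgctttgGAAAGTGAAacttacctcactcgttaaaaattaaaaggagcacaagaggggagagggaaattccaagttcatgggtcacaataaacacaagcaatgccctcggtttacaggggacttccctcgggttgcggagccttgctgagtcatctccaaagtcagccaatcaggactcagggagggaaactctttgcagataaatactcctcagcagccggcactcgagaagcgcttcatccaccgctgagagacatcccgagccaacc

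The 2 matches in Oas3 overlap, and the other promoters held 1 match each. Of the 28 interferon genes, 19 had a promoter in the RefSeq table and 12 of these held the core (63.2%), against 718 of 9854 promoters of tested genes (7.29%). Of the other motifs searched, the E2F site TTCCCGCC was in 1 of 24 cell cycle promoters (4.17%, against 4.39% of tested genes). The E-box CACGTG was in 5 of 22 lysosome promoters (22.7%, against 10.5%). The CCAAT box CCAAT was in 6 of 6 MHC class II promoters (39.1% of tested genes), and the sterol response element core TCACCCCAC in 1 of 16 cholesterol synthesis promoters (6.25%, against 0.457%). A match describes the letters of the window and is not a measured binding site.

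Disease-associated microglia genes also rose without Trem2. Of 24 members 23 were tested and 21 rose, beside 4.74% of all tested genes, with a median log2 fold change of 1.44. The count was 16 to 21 when any of the 7 libraries was left out. Ctsd, a lysosomal aspartic protease (0.12 ± 0.09, adjusted p = 0.546), and the integrin gene Itgb5 (-0.10 ± 0.07, adjusted p = 0.492) did not pass the test.

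Receptors of this program were low at baseline and higher in every cuprizone library. Clec7a, the beta-glucan receptor Dectin-1, was at 4.66, 4.01 and 3.88 CPM at baseline and 29.5, 32.4, 25.3 and 29.2 CPM after cuprizone (2.80 ± 0.12, adjusted p = 3.82e-12). In WT baseline libraries Clec7a was at 26.5, 26.4 and 26.1 CPM, within the range of the Trem2KO cuprizone libraries. Axl, a receptor kinase that recognizes dying cells through Gas6, was at 8.15, 9.94 and 8.06 CPM and 51.5, 58.0, 74.3 and 71.1 CPM (2.86 ± 0.21, adjusted p = 1.21e-08). The ranges of both receptors were far apart, with the lowest cuprizone library over 5 times the highest baseline library. Gpnmb, a glycoprotein of phagocytic cells, was at 0.212, 0.182 and 0 CPM at baseline and 3.52, 2.28, 0.930 and 1.10 CPM after cuprizone (3.79 ± 0.62, adjusted p = 0.000428), a low level in every library.

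Secreted proteins rose as well. Cst7, cystatin F, an inhibitor of lysosomal cathepsins, was at 3.07, 3.37 and 3.57 CPM at baseline and 35.1, 29.9, 28.8 and 36.9 CPM after cuprizone (3.28 ± 0.17, adjusted p = 1.08e-10). Csf1, a growth factor of microglia, was at 32.1, 31.7 and 25.7 CPM and 91.3, 77.6, 73.1 and 81.3 CPM (1.44 ± 0.10, adjusted p = 8.53e-09). The groups did not overlap for either gene. Apoe, the main lipid carrier of the brain and a ligand of TREM2, was at 77.3, 53.1 and 189 CPM at baseline and 600.1, 550.0, 538 and 598 CPM after cuprizone. Its fold change was 2.43 ± 0.27 (adjusted p = 3.97e-06), and its highest baseline library was replicate 3, the library with the most border macrophage RNA. Without that library the Apoe fold change was 3.13. Spp1, osteopontin, was at 0, 0.273 and 0.306 CPM at baseline and 5.38, 5.33, 2.91 and 4.52 CPM after cuprizone (4.43 ± 0.49, adjusted p = 2.96e-06). Its level stayed low, with few reads at baseline. Igf1, a growth factor for oligodendrocyte precursors, was at 0.318, 1.64 and 2.65 CPM and 7.35, 4.57, 5.35 and 6.72 CPM (1.94 ± 0.39, adjusted p = 0.00346), and its fold change was 2.53 without baseline replicate 3. Lpl, lipoprotein lipase, was at 18.2, 12.1 and 11.8 CPM and 33.1, 36.6, 31.6 and 32.8 CPM (1.26 ± 0.14, adjusted p = 2.74e-06). Apoe, Spp1, Igf1 and Lpl were higher in each cuprizone library than in each baseline library.

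Cell cycle genes rose in 23 of 30 tested members, beside 4.74% of all tested genes, with a median of 1.24. The count was 18 to 23 when any of the 7 libraries was left out. Mki67, a marker of cycling cells, was at 16.2, 14.1 and 16.2 CPM at baseline and 51.6, 70.5, 74.4 and 92.0 CPM after cuprizone (2.21 ± 0.32, adjusted p = 0.000105). The Mki67 level was lowest in cuprizone replicate 1 and highest in replicate 4, with no overlap with baseline. Top2a, which untangles chromosomes, was at 6.67, 8.66 and 11.1 CPM and 26.4, 35.7, 38.7 and 51.2 CPM (2.10 ± 0.32, adjusted p = 0.000179). Aurkb, a kinase of chromosome segregation, rose by 2.24 ± 0.29 and Ccnb1, cyclin B1, by 2.22 ± 0.34.

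The replication clamp gene Pcna did not pass the test, at 42.8, 41.7 and 43.0 CPM at baseline and 48.3, 50.7, 50.3 and 48.3 CPM after cuprizone (0.22 ± 0.07, adjusted p = 0.0681). Mcm2, a subunit of the replicative helicase, rose by 0.63 ± 0.15 (adjusted p = 0.0129), and its call ended in 2 of 13 alternatives, with adjusted p up to 0.0966 (without Trem2KO baseline replicate 2, without Trem2KO cuprizone replicate 4). Cdk1, the mitotic kinase, was at 3.39, 4.19 and 2.76 CPM and 7.45, 6.41, 10.00 and 11.1 CPM (1.33 ± 0.24, adjusted p = 0.00113).

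**Figure D3:**
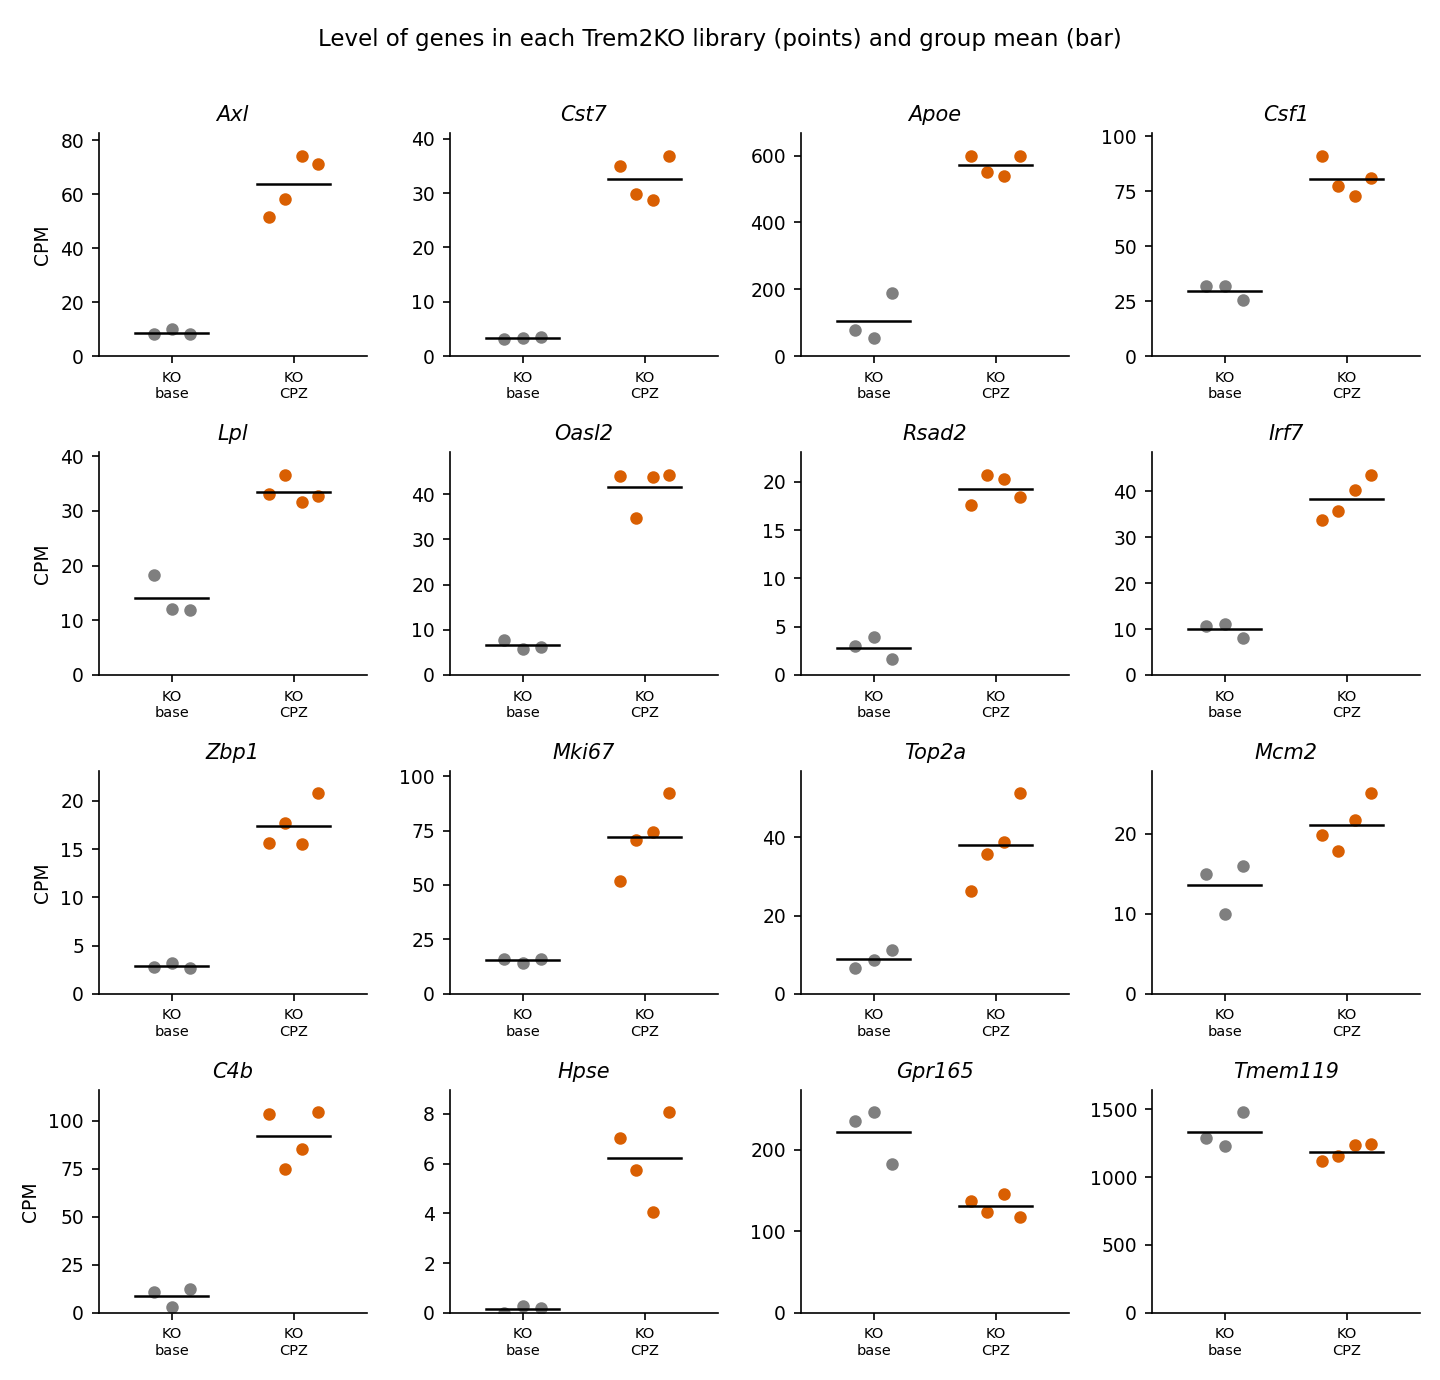
Level in CPM (vertical axes, from 0) of 16 genes in the 3 Trem2KO baseline libraries (KO base, grey) and the 4 Trem2KO cuprizone CD229neg CD11cneg libraries (KO CPZ, orange). Points are libraries and bars group means. The groups do not overlap for any of the genes but Tmem119, which did not pass the test.

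The homeostatic genes, which set microglia apart from other macrophages, stayed near their baseline levels. Of 23 tested members none rose and 1 fell (1.62% of all tested genes fell), and the median was -0.05. The member that fell was Gpr165, an orphan receptor, at 236, 246 and 182 CPM at baseline and 137, 123, 145 and 117 CPM after cuprizone (-0.76 ± 0.13, adjusted p = 0.000733). The fractalkine receptor gene Cx3cr1 was at 3160, 2927 and 3231 CPM and 2612, 2761, 2860 and 2785 CPM (-0.17 ± 0.06, adjusted p = 0.0739). It passed in 4 of 13 alternatives. The count of lower members was 4 without baseline replicate 2 or with no filter on low counts, and 1 without any other library. Csf1r, the receptor of CSF1, had a fold change of -0.04 ± 0.07 (adjusted p = 0.838), and the transcription factor gene Sall1 one of -0.05 ± 0.05 (adjusted p = 0.745).

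Genes of sterol export and lipid handling rose in 8 of 24 tested members and none fell, beside 4.74% higher and 1.62% lower over all tested genes. Abca1 and Abcg1, the pumps that load cholesterol onto lipoproteins and targets of the liver X receptors, rose by 0.43 ± 0.07 (adjusted p = 0.000616) and 0.64 ± 0.07 (adjusted p = 1.13e-06). Abcg1 was at 335, 321 and 333 CPM at baseline and 494, 502, 505 and 550.1 CPM after cuprizone. Scd2, a fatty acid desaturase, was at 194, 189 and 196 CPM and 275, 288, 297 and 327 CPM (0.62 ± 0.07, adjusted p = 7.39e-06). No library overlapped between the groups for these transporters and Scd2. The count of the list was 5 without baseline replicate 2 and 7 to 8 without any other library. Cholesterol synthesis genes gave 2 lower and no higher members of 23, beside the same shares. They were Srebf2, the factor that drives the pathway (-0.35 ± 0.07, adjusted p = 0.00228), and Tm7sf2, a sterol reductase (-0.55 ± 0.16, adjusted p = 0.0482). The Tm7sf2 call ended in 6 of 13 alternatives, with adjusted p up to 0.215 (with only the groups compared, without Trem2KO baseline replicate 1 or 3, without Trem2KO cuprizone replicate 2, 3 or 4).

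Lysosomal genes rose in 4 of 26 tested members, beside 4.74% of all tested genes, with a median of 0.16. Atp6v1a, a subunit of the proton pump, was at 78.4, 83.9 and 83.4 CPM at baseline and 110.1, 111, 109 and 113 CPM after cuprizone (0.43 ± 0.06, adjusted p = 7.1e-05). The count of the list was 2 without baseline replicate 2 7 without baseline replicate 3 and 9 with no filter on low counts. Of 12 genes of MHC class I presentation 5 rose, beside the same share, led by Nlrc5, the transactivator of class I genes, at 16.6, 16.8 and 13.7 CPM and 48.1, 41.7, 45.4 and 44.1 CPM (1.51 ± 0.12, adjusted p = 3.74e-08). The class I count was 3 without baseline replicate 1 or 2, and the H2 genes share reads among paralogs. None of 9 MHC class II genes passed in either direction. H2-Aa was at 6.46, 0.456 and 10.4 CPM at baseline, highest in replicate 3, and 4.04, 5.11, 1.74 and 2.81 CPM after cuprizone.

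Complement and Fc receptor genes rose in 3 of 16 tested members, beside 4.74% of all tested genes. C4b, complement component C4, had the largest change of the 3, from 10.6, 3.10 and 12.5 CPM at baseline to 104, 74.8, 85.4 and 104 CPM after cuprizone (3.43 ± 0.31, adjusted p = 2.61e-07). Its paralog can share reads. Without baseline replicate 2 the count of the list was 1. In the TREM2-DAP12 list 1 of 16 tested members rose and 1 fell, beside 4.74% higher and 1.62% lower over all tested genes. Treml2, a relative of Trem2 at the same locus, went from 20.4, 22.4 and 20.0 CPM to 43.7, 37.4, 32.9 and 36.7 CPM (0.85 ± 0.10, adjusted p = 6.54e-06). Dok3 was the member that fell, a call that ended in 8 of 13 alternatives, with fold changes of -0.31 to -0.19. The adaptor gene Tyrobp did not pass (0.18 ± 0.09, adjusted p = 0.3). Hif1a, the hypoxia-inducible factor, rose by 0.54 ± 0.07 (adjusted p = 1.99e-05). It was the 1 call among 16 lineage transcription factors, which is near the 4.74% of all tested genes.

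Small shifts of metabolic genes rested on few libraries. Glycolysis genes rose in 7 of 15 tested members with a median of 0.24, beside 4.74% of all tested genes, and in 2, 3 or 9 without baseline replicate 1, 2 or 3 and 4 without cuprizone replicate 2. Cytosolic ribosomal protein genes rose in 32 of 79, beside 4.74% of all tested genes, with a median of 0.34. That count was 7, 5 or 64 without baseline replicate 1, 2 or 3, and 15, 14 or 11 without cuprizone replicate 2, 3 or 4. Their processed pseudogenes can share reads. No gene of 20 in oxidative phosphorylation passed. Of 21 genes of antioxidant, iron and metal handling 2 rose, beside 4.74% of all tested genes, which is few members to read as a trait of the list. Slc31a1, the copper importer CTR1, was at 58.5, 54.7 and 50.7 CPM at baseline and 69.5, 68.9, 69.5 and 66.4 CPM after cuprizone (0.33 ± 0.06, adjusted p = 0.00258), with no overlap. The peroxiredoxin gene Prdx1 rose by 0.34 ± 0.09 (adjusted p = 0.0163) and no longer passed in 3 of 13 alternatives, with adjusted p up to 0.0792 (without Trem2KO baseline replicate 1 or 2, without Trem2KO cuprizone replicate 4). Psat1, an enzyme of serine synthesis and a target of the stress factor ATF4, was at 28.8, 29.6 and 33.7 CPM at baseline and 93.6, 90.0, 86.7 and 96.7 CPM after cuprizone (1.58 ± 0.08, adjusted p = 4.76e-11). The rest of the stress list did not rise: of 15 tested, Psat1 rose and the chaperone gene Hspa5 fell (-0.31 ± 0.08, adjusted p = 0.0248). Over all tested genes 4.74% rose and 1.62% fell, so 1 member each way is few to read as a trait of the list. The Hspa5 call ended in 3 of 13 alternatives, with adjusted p up to 0.133 (without Trem2KO baseline replicate 1 or 2, without Trem2KO cuprizone replicate 4).

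Among single genes of at least 5 CPM with no overlap, Hpse had the largest increase. It encodes heparanase, which cuts heparan sulfate of the extracellular matrix (chromosome 5, 100679484 to 100719716, mm10), and was at 0, 0.273 and 0.204 CPM at baseline and 7.04, 5.76, 4.07 and 8.07 CPM after cuprizone (5.13 ± 0.48, adjusted p = 3.13e-07), with 5.73 without baseline replicate 2. Chst2, a sulfotransferase of cell-surface glycans, was at 1.69, 2.64 and 3.88 CPM and 31.8, 28.4, 27.2 and 24.2 CPM (3.34 ± 0.22, adjusted p = 4.33e-09). Both were low in every baseline library. The rest of the 12 largest increases were C4b, Cst7, Axl, Clec7a and the interferon-response genes Oas3, Oasl1, Oas2, Rsad2, Ifi207 and Ifi27l2a.

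The decreases were smaller and mostly at low levels. Slc12a5, a potassium chloride cotransporter best known from neurons, was at 4.76, 4.28 and 6.74 CPM at baseline and 1.66, 2.28, 1.74 and 1.83 CPM after cuprizone (-1.48 ± 0.29, adjusted p = 0.00236). Ctnnd2, delta-catenin, was at 30.3, 32.7 and 28.5 CPM and 16.4, 15.4, 16.6 and 18.2 CPM (-0.87 ± 0.14, adjusted p = 0.000293). The long non-coding RNA Trp53cor1 was at 32.8, 23.8 and 24.8 CPM and 15.2, 14.9, 12.6 and 15.5 CPM (-0.90 ± 0.15, adjusted p = 0.0004). Every cuprizone library was below every baseline library for these genes. S1pr4, a sphingosine phosphate receptor, was at 40.0, 32.0 and 19.8 CPM and 20.4, 15.3, 14.2 and 7.45 CPM (-1.08 ± 0.26, adjusted p = 0.0141), and its groups overlapped. The S1pr4 call ended in 1 of 13 alternatives, with adjusted p up to 0.126 (without Trem2KO baseline replicate 1). Of 10 heat shock genes 2 fell, beside 1.62% of all tested genes, none without baseline replicate 2 and 6 without baseline replicate 3. Hspa1b had the largest decrease of the 12 named by the same rule, from 10.7, 53.4 and 10.8 CPM to 4.35, 7.50, 3.60 and 2.81 CPM (-2.45 ± 0.61, adjusted p = 0.0167). Without baseline replicate 2 the Hspa1b fold change was -1.23, and the call ended in 3 of 13 alternatives, with adjusted p up to 0.276 (without Trem2KO baseline replicate 2, without Trem2KO cuprizone replicate 3 or 4).

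Chromatin regulators gave 3 lower and 1 higher members of 19 in the Polycomb and H3K27 demethylase list, beside 1.62% lower and 4.74% higher over all tested genes, so the 1 higher member is near the background. Ezh2, the methyltransferase that is also made in cycling cells, was at 11.9, 11.4 and 11.03 CPM at baseline and 13.04, 20.2, 17.9 and 19.7 CPM after cuprizone (0.63 ± 0.14, adjusted p = 0.00836). The demethylase gene Kdm6b fell (-0.34 ± 0.09, adjusted p = 0.0187), a call that ended in 2 of 13 alternatives, with adjusted p up to 0.0887 (without Trem2KO baseline replicate 2, without Trem2KO cuprizone replicate 4). The count of lower members was 1 without cuprizone replicate 4. Nrros, which activates latent TGF-beta, was the 1 of 12 TGF-beta genes that fell (-0.19 ± 0.05, adjusted p = 0.0354), beside 1.62% of all tested genes. The Nrros call ended in 6 of 13 alternatives, with adjusted p up to 0.155 (with a replicate block, with only the groups compared, without Trem2KO baseline replicate 1 or 2, without Trem2KO cuprizone replicate 3 or 4). Of 16 inflammatory genes the chemokine genes Ccl5 and Ccl12 rose, beside 4.74% of all tested genes, which is few members to read as a trait of the list. Ccl12 was at 23.7, 20.2 and 18.1 CPM and 29.4, 28.8, 29.8 and 26.5 CPM (0.47 ± 0.11, adjusted p = 0.0127), and its call ended in 2 of 13 alternatives, with adjusted p up to 0.0523 (without Trem2KO baseline replicate 2 or 3). None of 18 immediate early genes passed, with a median of -0.53, the lowest of the 18 lists in the plot of members by list. With no filter on low counts 8 were lower and with a replicate block 9. Fos was at 707, 759.6 and 383 CPM at baseline and 632, 621, 358 and 102 CPM after cuprizone, with cuprizone replicate 4 the lowest of the 7. Per the labels' protocol, brains were processed in a buffer with flavopiridol, which blocks transcription.

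Markers of other cell types were read for the whole lists. Of 9 T and NK cell markers, Cd3e, Cd3g, Nkg7, Ncr1 and Gzma had no read in any of the 7 libraries, and the sums were 0.109 to 1.04 CPM. Neutrophil genes were uneven among the cuprizone libraries, at 6.52 and 7.45 CPM in replicates 2 and 4 and 0.310 and 0.349 CPM in replicates 1 and 3. Neuron sums were 18.3, 17.1 and 13.2 CPM at baseline and 11.5, 12.3, 13.8 and 14.7 CPM after cuprizone. None of 4 tested neuron markers passed, nor did the 1 tested B cell marker. The astrocyte sum, nearly all from Slc1a3, was 209.5, 218 and 194 CPM at baseline and 193, 195, 202 and 207 CPM after cuprizone, and the endothelial and mural sum 95.2, 95.6 and 83.2 and 85.6, 76.2, 87.2 and 77.5 CPM. Oligodendrocyte sums were 195, 172 and 214 CPM and 197, 185, 186 and 184 CPM, while the lineage factors Sox10 and Olig2 were at most 0.367 and 0.310 CPM. Of 5 tested endothelial and mural markers the VEGF receptor gene Kdr rose (0.54 ± 0.13, adjusted p = 0.0153) and the adhesion gene Pecam1, which macrophages also express, fell (-0.44 ± 0.09, adjusted p = 0.00491). Over all tested genes 4.74% rose and 1.62% fell. The Kdr call ended in 2 of 13 alternatives, with adjusted p up to 0.0694 (without Trem2KO baseline replicate 1 or 3). Of the 8 tested border macrophage markers, beside 4.74% of all tested genes, Folr2 rose (0.99 ± 0.27, adjusted p = 0.0322). It no longer passed in 6 of 13 alternatives, with adjusted p up to 0.181 (in the joined tables, without Trem2KO baseline replicate 1 or 2, without Trem2KO cuprizone replicate 1, 2 or 3). The others had negative fold changes that did not pass, with Mrc1 at 24.8, 19.2 and 51.9 CPM and 21.0, 12.7, 14.3 and 15.9 CPM. F13a1 was at 2.54, 0 and 13.9 CPM at baseline and 1.97, 0.652, 0.930 and 0.855 CPM after cuprizone, so the baseline mean comes mainly from replicate 3. Of 5 tested dendritic cell markers Clec9a rose, beside 4.74% of all tested genes. It passed in all 12 of its alternatives, with fold changes of 3.42 to 6.60. The dendritic sum was 14.5 to 19.3 CPM at baseline and 14.1 to 18.6 CPM after cuprizone. None of 4 tested monocyte markers passed, while Plac8 did in 6 of 13 alternatives.

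How much of the WT response this is was asked in a joined fit over the 23 libraries of 2 count tables. It covered 12416 tested genes that list the same transcript and hold identical counts in the shared WT baseline libraries. In WT, 2253 genes rose (18.1%) and 1639 fell (13.2%) between baseline and the same cuprizone gate. Of the 2253, 576 (25.6%) also rose in Trem2KO. Of the 632 that rose at least 2-fold in WT, 314 (49.7%) rose in Trem2KO, and their median log2 fold change was 2.12 in WT and 1.01 in Trem2KO. Of the 1639 genes that fell in WT, 168 (10.3%) fell in Trem2KO. Over all 12416 genes 650 rose and 263 fell in Trem2KO. Fold changes had the same sign in Trem2KO for 1892 (84%) of the 2253 and 1345 (82.1%) of the 1639. Of genes not called in WT, 59.1% had the same sign. The difference between genotypes, tested below, was called negative for 377 of the 2253 and positive for 99 of the 1639. These sets were chosen by the WT change itself, which makes their WT folds look larger. The gap to Trem2KO and these counts follow in part from that choice, and the size of this part was not tested. Conversely, of the 650 genes that rose in Trem2KO in this fit, 576 rose in WT, 73 did not pass there and 1 fell. Across 11917 genes of at least 1 CPM, the log2 fold changes of the 2 genotypes had a Pearson r of 0.683 and a Spearman rho of 0.497, a description over genes, which are not independent.

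**Figure D4:**
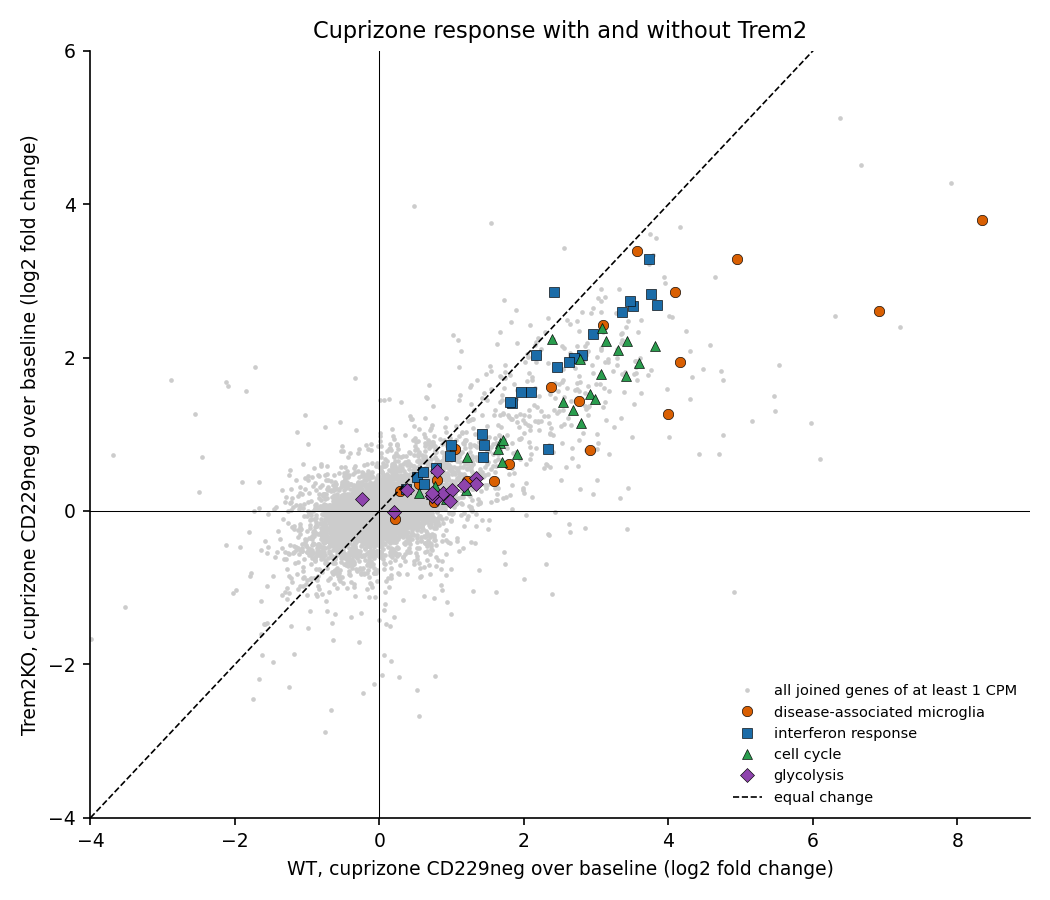
Log2 fold change of cuprizone CD229neg CD11cneg over baseline in WT (horizontal axis) and in Trem2KO (vertical axis), from the joined fit, for 12044 genes of at least 1 CPM in a group (grey) with 4 lists marked; 8 genes lie outside the axes. The dashed line marks equal change. Below it lie 27 of the 28 interferon genes, beside 6052 of 12140 genes tested in both fits, and the difference passed for 3 of the 28. Clec7a, Spp1 and Fabp5 of the disease-associated list are not in the joined fit.

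The difference itself was tested as the Trem2KO change minus the WT change. It was negative for 386 genes (3.11%) and positive for 112 (0.902%). Of the 386, 377 rose in WT, and 94 rose in Trem2KO as well, by less. A gene that missed the threshold of the difference is not shown to respond alike. Leaving out 1 of the 13 libraries of the 4 groups gave 198 to 638 negative and 38 to 330 positive differences, with the lowest counts without WT cuprizone replicate 3 and the highest without Trem2KO baseline replicate 2. Without Trem2KO baseline replicate 3 they were 222 and 55. WT cuprizone replicate 3 had the highest level of its group for most genes given below.

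For the 28 interferon genes the median was 2.13 in WT and 1.55 in Trem2KO, and the difference passed for Isg15 (-1.53 ± 0.35, adjusted p = 0.0117), Bst2 (-0.73 ± 0.16, adjusted p = 0.00879) and Dhx58 (-0.59 ± 0.14, adjusted p = 0.0132). Without Trem2KO baseline replicate 3 none of the 3 passed (adjusted p = 0.0551, 0.0537 and 0.0598), and Dhx58 also did not pass without WT cuprizone replicate 3 or with only the groups compared. For 21 disease-associated genes in the joined fit the medians were 2.77 and 0.81, with 11 negative differences. Clec7a (2.80 ± 0.12), Spp1 (4.43 ± 0.49) and Fabp5 (2.65 ± 0.64) rose in Trem2KO and are not among the 21. The 2 tables list different transcripts for them. Fabp5 was low, at 0.106, 0.182 and 0.102 CPM in Trem2KO baseline and 0.517, 1.30, 0.465 and 1.34 CPM in Trem2KO cuprizone libraries. The 21 include Dkk2, which had no read in the baseline or Trem2KO CD229neg cuprizone libraries. It passed the filter on low counts only with the WT cuprizone libraries added and counts in both medians. The 0.81 is thus over other members than the 1.44 of the 23 genes tested within 1 table. For 27 cell cycle genes the medians were 2.55 in WT and 1.32 in Trem2KO, with 6 negative differences. For 14 glycolysis genes they were 0.80 and 0.24, with 10 negative differences. None of these 4 lists had a positive difference, beside 3.11% negative and 0.902% positive differences over all tested genes. For the 23 homeostatic genes the medians were -0.084 in WT and -0.055 in Trem2KO, with no called difference in either direction. In WT 2 of the homeostatic genes rose and 4 fell, beside 18.1% higher and 13.2% lower over all tested genes. A list's median is a description, and the lists were not tested against each other.

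Oas2 was at 3.75, 18.0 and 16.0 CPM in WT baseline and 51.3, 57.1 and 94.7 CPM in WT cuprizone libraries, a change of 2.41 ± 0.27, beside 2.85 ± 0.29 in Trem2KO (difference 0.44 ± 0.41, adjusted p = 0.593). Rsad2 changed by 3.47 ± 0.22 in WT, from 2.96, 3.25 and 3.39 CPM to 31.2, 30.5 and 45.3 CPM (difference -0.73 ± 0.36, adjusted p = 0.254). Neither gene is shown to respond alike or unlike. C4b, at 5.72, 16.0 and 21.9 CPM and 62.1, 56.5 and 139 CPM in WT, had a positive difference that did not pass (0.87 ± 0.51, adjusted p = 0.346).

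Several disease-associated genes that rose in both genotypes rose less in Trem2KO. Lpl was at 37.2, 36.4 and 27.2 CPM in WT baseline and 476, 489 and 644 CPM in WT cuprizone libraries, a change of 4.00 ± 0.12, and the difference was -2.73 ± 0.19 (adjusted p = 6.44e-10). The Trem2KO cuprizone libraries thus lay at the level of WT baseline for this lipase. Csf1 changed from 52.4, 43.8 and 48.6 CPM to 290.2, 271 and 423 CPM in WT (difference -1.33 ± 0.18, adjusted p = 4.85e-05). Cst7 changed from 6.51, 8.71 and 5.33 CPM to 189, 183 and 269.9 CPM (difference -1.67 ± 0.34, adjusted p = 0.00425), and Axl from 20.0, 34.7 and 35.1 CPM to 443, 448 and 650.3 CPM (difference -1.24 ± 0.30, adjusted p = 0.0152). These 4 differences passed in every alternative. Apoe was at 126, 129 and 208 CPM and 1340, 1122 and 1487 CPM in WT, and its difference did not pass (-0.67 ± 0.34, adjusted p = 0.263). Ctsd, which did not pass in Trem2KO, rose by 0.75 ± 0.10 in WT (difference -0.63 ± 0.13, adjusted p = 0.00599).

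**Figure D5:**
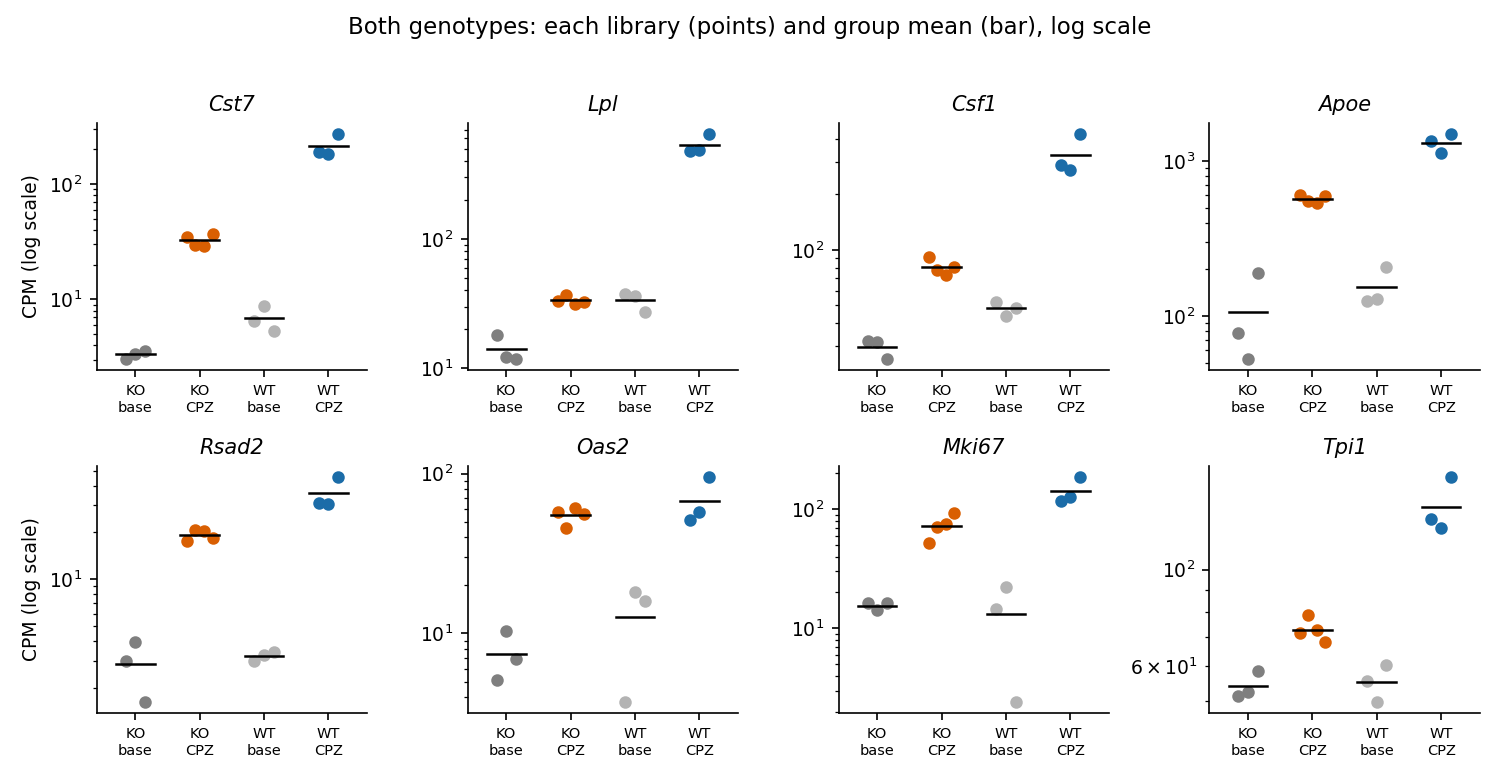
Level in CPM (vertical axes, log scale) of 8 genes in Trem2KO baseline, Trem2KO cuprizone CD229neg CD11cneg (KO CPZ), WT baseline and WT cuprizone CD229neg CD11cneg (WT CPZ) libraries. Points are libraries and bars group means. For Lpl the Trem2KO cuprizone libraries lie beside the WT baseline libraries, and for Oas2 they lie within the range of the WT cuprizone libraries but for 1 library.

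Glycolysis genes with a called difference all rose more in WT. Tpi1, triose phosphate isomerase, was at 55.6, 49.9 and 60.4 CPM and 131, 125 and 163 CPM in WT, against 51.4, 52.5 and 58.5 CPM and 71.4, 78.7, 72.5 and 68.4 CPM in Trem2KO (difference -0.91 ± 0.12, adjusted p = 6.38e-05). Slc2a1, the glucose transporter GLUT1, was at 79.2, 82.4 and 78.4 CPM and 144, 148 and 179 CPM in WT, against 67.0, 72.6 and 72.9 CPM and 77.5, 89.4, 75.4 and 66.5 CPM in Trem2KO (difference -0.85 ± 0.12, adjusted p = 8.47e-05). In Trem2KO, Slc2a1 did not pass (0.12 ± 0.09, adjusted p = 0.518). Pkm and Ldha had differences of -0.83 ± 0.12 and -0.74 ± 0.11, and all 4 passed in every alternative.

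The 8 most negative differences among genes with a group mean of at least 5 CPM in either genotype were those of Colec12, Flt1, Ctla2a, Ch25h, Mcm10, Efr3b, Ptger4 and Etl4. All were under 5 CPM in every Trem2KO library of the 2 groups, baseline and cuprizone CD229neg CD11cneg. They thus met the minimum only through WT libraries, and their low level in Trem2KO follows in part from this ranking. Flt1, a receptor of VEGF, was at 0.847, 0.729 and 1.43 CPM and 2.28, 0.761, 1.98 and 1.34 CPM in Trem2KO and at 0.887, 0.967 and 0.776 CPM and 47.1, 50.5 and 84.7 CPM in WT (difference -5.41 ± 0.77, adjusted p = 8.99e-05). Efr3b, at 1.80, 1.28 and 0.919 CPM and 1.66, 2.83, 3.02 and 4.77 CPM in Trem2KO, went from 1.68, 0.880 and 0.582 CPM to 29.3, 31.2 and 52.1 CPM in WT (difference -3.99 ± 0.61, adjusted p = 0.000192). Both passed in every alternative. Ch25h, which makes the oxysterol 25-hydroxycholesterol, was at 0.212, 0.456 and 0.102 CPM and 1.86, 2.07, 1.74 and 0.978 CPM in Trem2KO and at 0.296, 1.23 and 0.873 CPM and 87.0, 80.7 and 133 CPM in WT. In the CD229pos CD11cneg cells of Trem2KO it was at 16.9, 13.4, 18.1 and 18.8 CPM. Its difference was -4.31 ± 1.17 (adjusted p = 0.0356) and ended in 3 of 19 alternatives, with adjusted p up to 0.216 (without Trem2KO baseline replicate 1, 2 or 3).

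Of the 112 genes with a positive difference, 99 fell in WT. Angptl7, an angiopoietin-like secreted protein, was at 16.8, 10.4 and 17.2 CPM and 8.28, 7.80 and 6.18 CPM in WT, against 10.5, 9.57 and 11.3 CPM and 14.6, 15.1, 12.2 and 13.4 CPM in Trem2KO (difference 1.40 ± 0.27, adjusted p = 0.00251), and passed in every alternative. The cytokine gene Il6 was at 7.49, 8.00 and 6.98 CPM and 3.53, 3.44 and 3.37 CPM in WT and at 7.30, 5.65 and 6.33 CPM and 6.21, 9.13, 5.81 and 5.01 CPM in Trem2KO (difference 1.15 ± 0.32, adjusted p = 0.0416). That call ended in 10 of 19 alternatives, with adjusted p up to 0.103 (with only the groups compared, without Trem2KO baseline replicate 2 or 3, without Trem2KO cuprizone replicate 1 or 2, without WT baseline replicate 1 or 2, without WT cuprizone replicate 1, 2 or 3).

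The CD229pos CD11cneg cells of the same Trem2KO cuprizone diet (n = 4) share the baseline libraries, so their values stand side by side only. Libraries of the same number in the 2 gates also deviated together (r = 0.382, 0.231, 0.134 and 0.375 across genes for numbers 1 to 4), so they are not independent of each other. A fit without the CD229pos libraries called 552 higher and 202 lower genes in the CD229neg cells. Clec7a was at 139.6 ± 8.67 CPM (SD, n = 4) there, against 29.1 ± 2.90 CPM in CD229neg cells. Axl was at 286 ± 55.9 CPM against 63.7 ± 10.8 CPM, Oas2 at 268 ± 41.3 CPM against 54.9 ± 6.51 CPM and Mki67 at 235 ± 45.5 CPM against 72.1 ± 16.6 CPM. Lpl was at 76.1 ± 4.91 CPM against 33.5 ± 2.17 CPM. Gpr165 was lower, at 35.1 ± 8.38 CPM against 131 ± 12.96 CPM. For these 6 genes the level of the CD229neg cells lay between baseline and the CD229pos cells.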

How the data were processed

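The values are counts of reads per gene, deposited as whole numbers in 2 tables that share the WT baseline libraries. The submitters' processing notes name fastp 0.20.0, STAR 2.7.0f, HOMER 4.11 and DESeq2, and the builds mm10 and GRCm38, without roles. The table with the Trem2KO libraries holds 14 libraries, and 12522 genes passed edgeR's filter on low counts (filterByExpr). Counts were fitted with edgeR 4.0.16 (TMM scaling, quasi-likelihood F test over all groups of the table, 10 residual degrees of freedom, R 4.3.3) and adjusted by Benjamini-Hochberg over all tested genes, with a threshold of 0.05. The genotype difference was fitted in the same way over 23 libraries of both tables (23564 genes joined, 12416 tested, 16 residual degrees of freedom). The code was tested on simulated counts. Replicate pairs differed by 1.968 to 12.55 times counting noise, so no library was counted as a repeat of another.

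The groups and gene lists were chosen with earlier results of these data known. Apart from the targeted, sorted and marker genes, the genes named are the 12 largest changes per direction with at least 5 CPM and no overlap, the 8 largest differences per direction, up to 4 per list by p-value and the 6 largest shared changes per direction. Predicted and small RNA genes were left out. A further 26 genes were chosen after their values were seen: Apoe, Lpl, Spp1, Igf1, Gpnmb, Lgals3, Ctsd, Itgb5, Isg15, Bst2, Dhx58, Irf7, Ifi44, Cxcl10, Mcm2, Pcna, Cdk1, Slc2a1, Pgk1, Tmem119, P2ry12, Csf1r, Sall1, F13a1, Fos and 1 gene that is not reported here. Further alternatives were size factors, no filter, DESeq2 1.42.0, a replicate block, only the groups compared, the other table or join, and leaving out each library. Promoters came from RefSeq for 9854 of the tested genes. Figures were drawn with matplotlib 3.10.9 in Python 3.11.15.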

Additional observations from a re-analysis of the deposited data

Results flagged for a closer look

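The change with cuprizone differed between the genotypes for 386 genes in the negative direction, less positive in Trem2KO than in WT, and for 112 genes in the positive direction. Among the named genes 46 had such a difference, by edgeR's quasi-likelihood test of the difference with Benjamini-Hochberg adjustment, given here as log2 values of Trem2KO minus WT. Of disease-associated genes they were Ch25h (-4.31), Lpl (-2.73), Igf1 (-2.23), Cst7 (-1.67), Csf1 (-1.33), Axl (-1.24) and Ctsd (-0.63). Of cell cycle genes they were Mcm10 (-4.18), Cdk1 (-1.36), Mcm2 (-1.06) and Pcna (-0.50). Of glycolysis genes they were Pgk1 (-0.98), Tpi1 (-0.91), Slc2a1 (-0.85), Pkm (-0.83) and Ldha (-0.74), and of interferon genes Isg15 (-1.53), Bst2 (-0.73) and Dhx58 (-0.59). MHC genes were H2-K1 (-0.61), H2-DMa (-0.49) and H2-D1 (-0.48), lysosomal genes Gusb (-0.57) and Ctsl (-0.42) and lipid genes Scd2 (-0.60) and Srebf2 (-0.37). Stress genes were Sesn2 (-0.73) and Hspa5 (-0.45), and ribosomal protein genes Rpsa (-0.50) and Rplp0 (-0.42). Other negative differences were those of Colec12 (-5.96), Flt1 (-5.41), Ctla2a (-4.80), Efr3b (-3.99), Ptger4 (-3.97), Etl4 (-3.96), Ccl12 (-0.99) and Ptprc (-0.28). Positive differences were those of Ackr3 (1.71), Angptl7 (1.40), Paqr8 (1.34), Il6 (1.15), B3gnt9 (1.04), Klhl15 (0.99), Itgae (0.98) and Gk5 (0.96). Of the 46 differences 19 passed in every alternative. Those lost in 7 or more of 19 alternatives were B3gnt9 (14), Ptprc and Rplp0 (12 each), Ackr3, Paqr8 and Sesn2 (11 each), Il6 and Klhl15 (10 each), H2-D1 (9), Cdk1 and Ctsl (8 each), and Ctla2a, Gk5 and Igf1 (7 each). Leaving out 1 library moved some values by over 1.5 times. Without WT baseline replicate 2 Ctla2a was at -6.49 and Ptger4 at -4.70. Colec12 was at -7.14 without Trem2KO cuprizone replicate 1 and at -4.96 without Trem2KO baseline replicate 3, and lay between these without Trem2KO baseline replicate 2 or WT baseline replicate 2. Etl4 was at -5.19 without Trem2KO cuprizone replicate 4, Igf1 at -1.63 without Trem2KO baseline replicate 3 and Ch25h at -3.59 without Trem2KO baseline replicate 2.

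Of 216 values tested in the 4 cuprizone libraries, 15 had 1 library far from the other 3, and chance gives about 1 in 20. Replicate 4 was apart in 6 of the 15. It was lowest for Mmp15 (5.38 CPM, against 9.31 to 10.0), Hspa5 (469 CPM, against 571 to 580.0) and the summed stress and unfolded protein response genes (2150.0 CPM, against 2300.0 to 2330.0). It was highest for Etl4 (1.83 CPM, against 0.109 to 0.349), Ctsl (450.0 CPM, against 403 to 409) and Dhx58 (58.0 CPM, against 49.5 to 49.8). Replicate 3 was highest for Ptprc (565 CPM, against 527 to 533), Apoc1 (2.67 CPM, against 0.978 to 1.24) and the summed target and sort genes (736 CPM, against 692 to 699). Replicate 2 was lowest for Oasl2 (34.7 CPM, against 43.8 to 44.4), Glb1 (99.8 CPM, against 112 to 113) and Kdr (18.9 CPM, against 22.7 to 22.9). Replicate 1 was lowest for Oas3 (3.52 CPM, against 6.09 to 6.60) and highest for Cnp (86.7 CPM, against 76.3 to 77.3) and the summed border macrophage markers (32.0 CPM, against 20.5 to 22.5).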

How the results depend on the processing

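The count of genes that changed in Trem2KO was 797 and ran from 490 to 1012 when 1 library was left out; the higher genes ran from 399 to 679 and stayed within 1.5 times their count of 594. The lower genes (203) ran from 91 to 333 and were 307 with no filter on low counts. The genotype difference (498 genes) ran from 236 to 968 when 1 library was left out, the negative part from 198 to 638 and the positive part from 38 to 330. With no filter it was called for 855 genes (642 negative, 213 positive) and with only the groups compared for 293 (243 negative, 50 positive). With DESeq2 the positive part was 209. The share of genes at least 2-fold higher in WT that also rose in Trem2KO was 38.9 to 57.3% when 1 library was left out. Of 99 named genes called in Trem2KO 68 were called in every alternative, and of 46 called differences 19. No direction reversed among the called results. The cause of these changes was not tested.

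Baseline and cuprizone libraries of the same replicate number did not pair: their deviations correlated at 0.087, 0.089 and -0.007 in Trem2KO and 0.109, 0.085 and 0.018 in WT, and not every library correlated best with its own number. With the replicate block 795 genes changed in Trem2KO, and the difference was called for 905 genes (645 negative, 260.0 positive).

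Genes with few reads, such as Hpse, Spp1 and Gpnmb at baseline, have folds of low precision, and 3 baseline libraries leave the baseline mean open to 1 library.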
